A study of Mus musculus with 18 samples.

Results

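The Kruppel-like factors described here are Klf2, Klf3, Klf4, Klf5, Klf6, Klf7, Klf9, Klf10, Klf13 and Klf15, 10 of the 15288 genes in the deposited expression table. They were chosen by gene symbol, by a selection made with earlier results of these data known. Their values in every comparison therefore count as used in the choice, and the values, differences and numbers of called genes below are descriptions of these 10 genes, not tests of the family.

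Kruppel-like factors are transcription factors with a conserved DNA-binding domain of zinc fingers at the carboxyl end, which binds GC boxes and CACCC boxes in promoters and is shared with the SP factors. In vessels, Klf2 and Klf4 are induced by laminar flow through the kinases MEKK3, MEK5 and ERK5 and the MEF2 factors, and act in endothelium against clotting and inflammation. Klf10 is an early gene of transforming growth factor beta, Klf6 responds to vascular injury, Klf9 and Klf15 are targets of the glucocorticoid receptor, and Klf15 drives amino acid catabolism.

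The labels name the mouse cells pulmonary microvascular endothelial cells (PMVEC), whereas pulmonary vascular smooth muscle is what the series title gives. The 18 libraries form 6 groups of 3: cells with a scrambled siRNA, or with one called siCYP1B1 that targets an estrogen-hydroxylating cytochrome P450, each given vehicle, 1 uM E2 (estradiol) or 1 uM 16aOHE (a hydroxyestrone, an estrogen metabolite). All dishes received 5 ul of a 10 uM siRNA stock with Lipofectamine, and the estrogens were added 24 h later for 24 h in 5% serum, so every group, controls included, was transfected and none went without siRNA. The labels name no strain, age or sex, and they do not state that a group's 3 libraries were separate cultures, so p-values here reflect the spread among libraries that may differ only technically.

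Values are counts-per-million (CPM). From the steps between low values, the libraries held an estimated 14.1 to 38.5 M reads, so that 1 CPM stood for 14.1 to 38.5 reads. Differences are in log2(CPM + 1), which understates the change of low genes, and a gene is named as called where limma's moderated test across the 11835 genes averaging 1 CPM or more gave a Benjamini-Hochberg adjusted p under 0.05. The targeted gene, Cyp1b1, was lower with its siRNA in each arm, with log2 differences of -0.18 (vehicle), -0.19 (E2) and -0.24 (16aOHE) (limma adjusted p = 0.000982, 0.000357 and 5.85e-05), from 92.2 ± 3.58 to 81.5 ± 0.724 CPM with vehicle (SD, n = 3). With E2 it went from 117.6 ± 1.06 to 102.6 ± 1.95 CPM, and with 16aOHE from 106.3 ± 1.25 to 90.1 ± 1.39 CPM. The knockdown seen in RNA was thus partial, and the siCYP1B1 libraries with E2 held more Cyp1b1 than the scrambled libraries with vehicle. Of 18 endothelial markers, 7 reached a mean of 1 CPM and 3 a mean of 10 CPM. These 3, Cd34, Flt1 and Esam, averaged 107, 70.0 and 18.9 CPM over the 18 libraries. The defining markers Pecam1 and Vwf averaged 0.0482 and 0.0306 CPM, while the mesothelial markers Msln and Upk3b averaged 1521 and 825 CPM. Of the 10 mesothelial and epithelial markers 8 reached a mean of 1 CPM and 5 a mean of 10 CPM, and the epithelial markers Krt8 and Epcam averaged 0.522 and 0.343 CPM. The labelled cell type was therefore not borne out by the defining markers Pecam1 and Vwf. Of 8 smooth muscle markers, 4 reached a mean of 1 CPM and 3 a mean of 10 CPM. Cald1, Smtn and Acta2 averaged 965, 90.1 and 20.5 CPM, whereas Myh11 and Cnn1 averaged 0.0765 and 0.106 CPM. The smooth muscle named in the series title was thus not settled by these markers. The summed level of the 10 mesothelial and epithelial markers was 3822 to 3898 CPM with scrambled siRNA and vehicle, 2938 to 3119 CPM with E2 and 3443 to 3678 CPM with 16aOHE, and 2951 to 3107, 2413 to 2484 and 2770 to 2915 CPM in the same order with siCYP1B1. The fibroblast and pericyte sum moved likewise with E2, from 6562 to 6922 CPM down to 4272 to 4785 CPM with scrambled siRNA, and was 5233 to 5531 CPM with siCYP1B1 and vehicle. Col3a1 and Col1a1 weighed most in it, averaging 2488 and 1946 CPM. Their log2 differences with E2 in scrambled cells were -0.73 and -0.35, and those of Col1a2 and Dcn -0.68 and -0.42. Not all members fell there: Pdgfrb was 0.33 higher and called, and Pdgfra 0.33 higher and not called. In siCYP1B1 cells these last genes differed by 0.06 and -0.05, neither called. The endothelial sum was 276 to 312 CPM with scrambled siRNA and vehicle, 222 to 229 with E2 and 246 to 252 with 16aOHE, and 202 to 205, 143 to 149.8 and 171 to 176 CPM in the same order with siCYP1B1. The smooth muscle sum, in which Cald1 weighed most, did not fall with E2. In that order it was 1097 to 1116, 1095 to 1121 and 1083 to 1111 CPM with scrambled siRNA, and 1027 to 1063, 1062 to 1073 and 1028 to 1060 CPM with siCYP1B1. In bulk RNA, fewer cells of a type and less RNA per cell cannot be told apart, and the part of these shifts in the results below was not tested.

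Promoters of 8 of the 10 genes matched the RefSeq table (GRCm38.p6, from 250 bases before to 50 after the transcript start), and those of the 4 genes on which the results turn are shown 5′ to 3′ on the gene's strand to let the GC and CACCC boxes that the family itself binds be seen. Capitals mark the GC box, searched as GGGCGG on both strands. They also mark the CACCC box, for which the letters searched on both strands were CCACCC, and a MEF2 site. They lie at chr6:90462326-90462625 (plus strand, Klf15), chr13:5861239-5861538 (plus, Klf6), chr4:55532426-55532725 (minus, Klf4) and chr8:72318812-72319111 (plus, Klf2).
Klf15: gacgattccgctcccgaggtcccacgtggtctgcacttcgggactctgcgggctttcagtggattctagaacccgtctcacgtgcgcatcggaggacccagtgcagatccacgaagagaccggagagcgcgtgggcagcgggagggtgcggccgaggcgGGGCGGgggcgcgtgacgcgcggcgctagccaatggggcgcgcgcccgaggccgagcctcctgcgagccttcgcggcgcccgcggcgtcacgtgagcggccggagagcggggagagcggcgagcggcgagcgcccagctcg
Klf6: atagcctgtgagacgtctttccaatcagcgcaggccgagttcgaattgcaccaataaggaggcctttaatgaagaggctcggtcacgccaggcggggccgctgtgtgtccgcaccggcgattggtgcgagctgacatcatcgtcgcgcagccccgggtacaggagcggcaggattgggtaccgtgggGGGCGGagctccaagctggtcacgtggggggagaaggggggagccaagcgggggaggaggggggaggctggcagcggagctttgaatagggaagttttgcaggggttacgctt
Klf4: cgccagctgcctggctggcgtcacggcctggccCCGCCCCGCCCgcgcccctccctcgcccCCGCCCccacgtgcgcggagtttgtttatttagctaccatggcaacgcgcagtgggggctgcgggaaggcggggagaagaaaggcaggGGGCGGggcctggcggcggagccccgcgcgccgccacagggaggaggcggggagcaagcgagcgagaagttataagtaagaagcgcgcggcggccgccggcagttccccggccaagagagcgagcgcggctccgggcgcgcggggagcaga
Klf2: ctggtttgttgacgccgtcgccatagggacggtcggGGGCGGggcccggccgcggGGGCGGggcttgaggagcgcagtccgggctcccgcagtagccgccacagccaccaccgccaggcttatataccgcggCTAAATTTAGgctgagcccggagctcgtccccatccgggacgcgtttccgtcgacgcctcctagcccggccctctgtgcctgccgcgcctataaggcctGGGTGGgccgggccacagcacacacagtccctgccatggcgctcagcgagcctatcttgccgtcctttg
Klf15 and Klf6 each held 1 GC box, at positions -91 and -63 from the start, and no CACCC box. Klf4 held 4 GC boxes. Klf2 held 2 GC boxes, 1 CACCC box and, at position -118, 1 MEF2 site, the kind of site through which ERK5 acts on Klf2. Of 32851 RefSeq promoters of the same length, 35.66% held GGGCGG, 31.48% CCACCC and 3.187% the MEF2 site. The short sites AGAACA (glucocorticoid receptor) and AGGTCA (estrogen receptor), held by 18.97% and 16.26% of promoters, were searched on both strands and were in none of the 8 windows, which says only that these letters are not there. A GC box can overlap a CACCC box or another GC box, and each match was counted.

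Per kilobase of exon, Klf4 was the most abundant of the 10 genes, with a mean of 80.9 CPM per kb over the 18 libraries. Klf6 followed at 49.5, Klf2 at 33.0, Klf10 at 16.9, Klf3 at 12.2, Klf9 at 8.64 and Klf13 at 7.93 CPM per kb. Klf5, Klf15 and Klf7 were far lower, at 1.85, 1.01 and 0.667 CPM per kb. Exon lengths were the union of exons in GENCODE M21 (mm10), from 1847 bases for Klf2 to 11243 bases for Klf3. The deposited coordinates of some genes are shorter than those of GENCODE. Klf7 spans 64035671 to 64121389 as deposited and 64029447 to 64122282 in GENCODE, and Klf3, Klf5 and Klf9 also end short. The lengths used may thus exceed what was counted for these genes, so their levels per kb may be too low. The order of Klf5, Klf15 and Klf7 is therefore not settled. Klf7 shares 3196 exon bases with Gm26649, a long noncoding RNA on the opposite strand, and Klf3 shares 404 with Gm20033. Neither neighbour is among the rows of the table and no source used here gives the strandedness of the libraries, so reads of these neighbours cannot be told apart from those of Klf7 and Klf3.

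**Figure D1:**
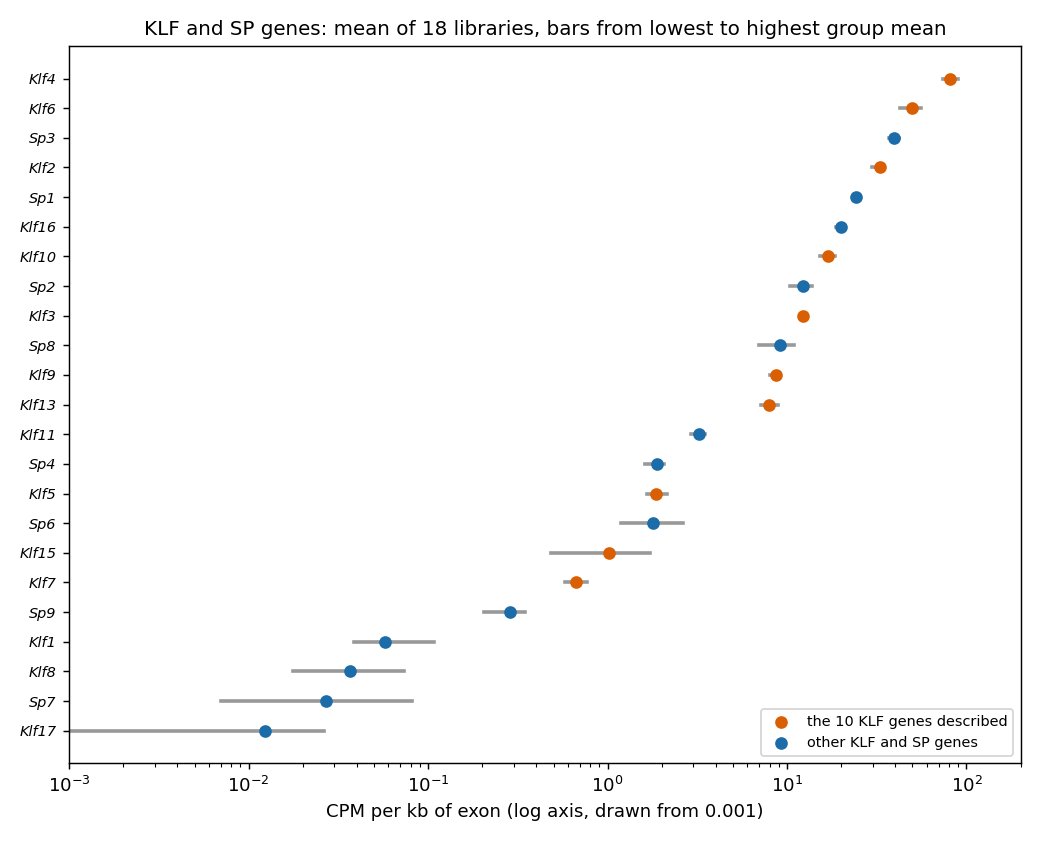
Mean level of each KLF and SP gene over the 18 libraries, in CPM per kilobase of exon on a log axis drawn from 0.001, with grey bars from the lowest to the highest of the 6 group means; the bar of Klf17 is cut at the axis. Klf4 at 80.9 and Klf6 at 49.5 CPM per kb lead the list, and Klf15 has the widest bar of the 10 genes described, from 0.487 to 1.72 CPM per kb.

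Klf15 lies at chr6:90462576-90479686 on the plus strand of mm10 and spans 5 exon blocks. With scrambled siRNA its CPM was 1.25, 1.73 and 1.10 in the vehicle libraries, 3.51, 4.89 and 4.54 with E2, and 1.46, 1.98 and 1.84 with 16aOHE. With siCYP1B1 the values were 1.82, 1.59 and 2.01 CPM with vehicle, 4.49, 4.20 and 5.73 with E2, and 3.13, 2.74 and 2.87 with 16aOHE. The 6 E2 libraries held the highest values of the 18, and the siCYP1B1 libraries with 16aOHE stood apart between them and the rest. These levels rest on 24 to 153 reads a library (group sums of 90, 306 and 161 reads with scrambled siRNA and 124, 364 and 174 with siCYP1B1, for vehicle, E2 and 16aOHE).

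With E2 the mean of Klf15 was 3.17 times that with vehicle in scrambled cells (4.31 ± 0.718 against 1.36 ± 0.331 CPM, SD, n = 3), a log2 difference of 1.17 (SE 0.139). In siCYP1B1 cells the ratio was 2.66 and the log2 difference 1.04. With 16aOHE the log2 difference was 0.23 in scrambled cells, where the libraries overlapped and the gene was not called, and 0.48 in siCYP1B1 cells, where they did not overlap and it was called. That last call was lost without any 1 of the 6 libraries compared (adjusted p from 0.0786 to 0.161) and when those 2 groups were fitted alone (0.0897). In the order of group means, neighbours overlapped except between siCYP1B1 with vehicle and siCYP1B1 with 16aOHE, and between the latter and scrambled with E2.

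**Figure D2:**
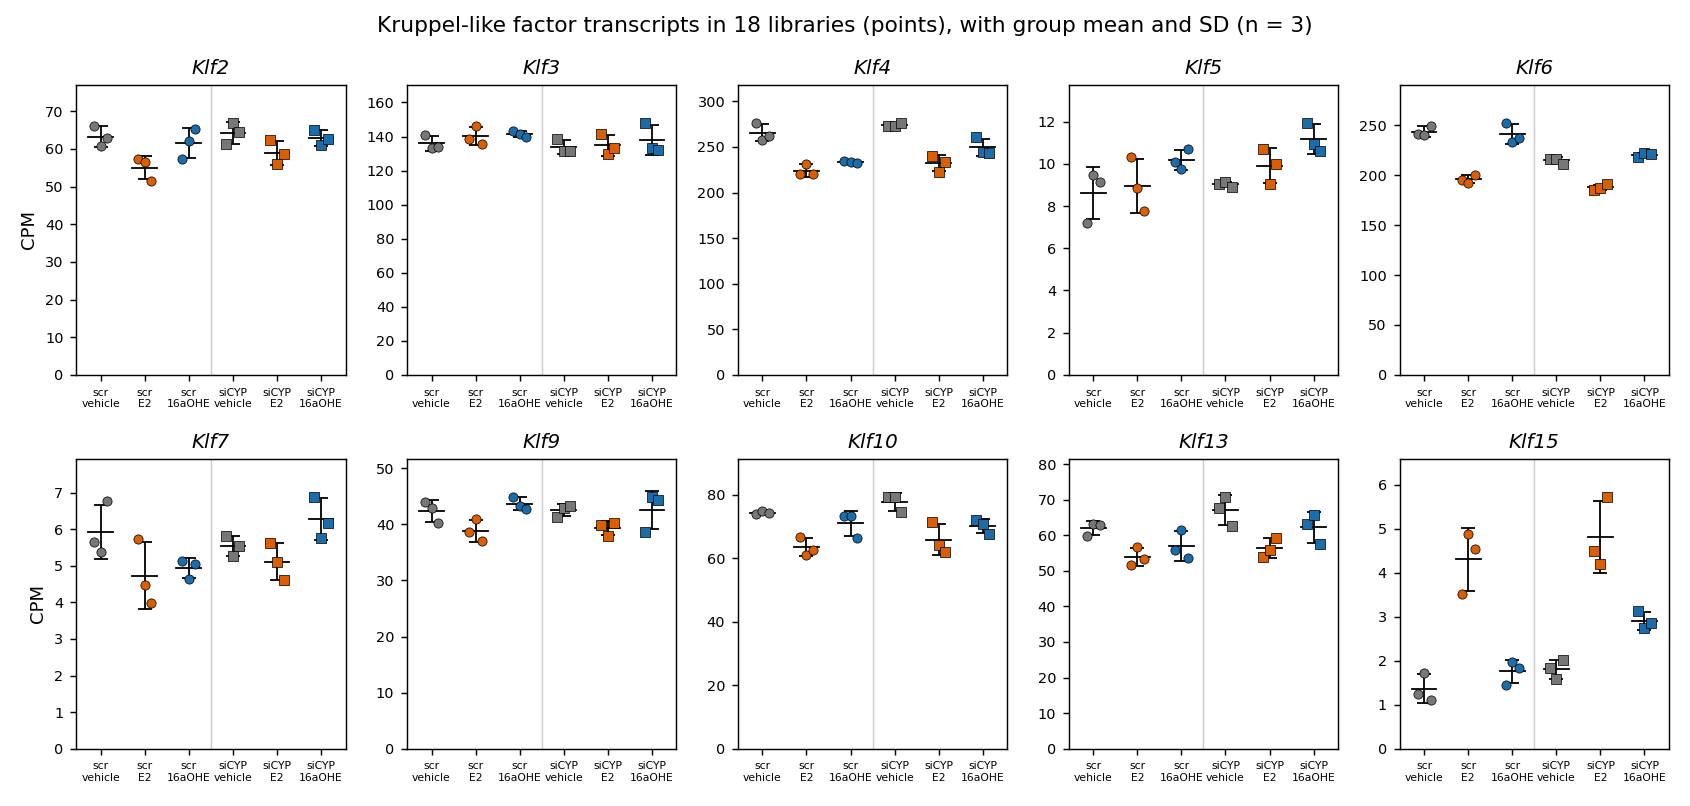
CPM of the 10 Kruppel-like factor genes in each of 18 libraries (points, circles for scrambled and squares for siCYP1B1), with the mean and SD of each group of 3 as bars and each vertical axis starting at 0. Klf15 is higher in all 6 E2 libraries (3.51 to 5.73 CPM) than in the other 12 (1.10 to 3.13 CPM), and Klf6 is lower in all 6 E2 libraries (186 to 201 CPM) than in the others (211 to 253 CPM).

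Across the 10 genes, 6 were called between E2 and vehicle in scrambled cells, 1 higher (Klf15) and 5 lower (Klf2, Klf4, Klf6, Klf10 and Klf13), where 30.0% of all genes tested were called. In siCYP1B1 cells 5 were called, 1 higher (Klf15) and 4 lower (Klf4, Klf6, Klf10 and Klf13), against 27.5% of all genes. The median difference of the 10 was -0.20 and -0.12 in these comparisons, beside 0.03 and 0.04 over all genes tested. Another scaling moved the direction of the background: 62.0% of the genes called in scrambled cells were higher with E2 as deposited, 46.9% after median-of-ratios scaling and 51.0% after quantile normalization (60.6%, 45.8% and 50.8% in siCYP1B1 cells), though the median of all genes moved by under 0.1 on the log2 scale. None of the called directions of the 10 genes turned under either.

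Klf4 (chr4:55527137-55532475, minus strand), which in smooth muscle represses contractile genes and in endothelium acts beside Klf2, was lower with both estrogens. Its CPM was 276, 258 and 262 with scrambled siRNA and vehicle, 221, 232 and 220.1 with E2, and 235, 234 and 232 with 16aOHE. In siCYP1B1 cells it was 273, 273 and 277 with vehicle, 240.0, 223 and 234 with E2, and 261, 245 and 243 with 16aOHE. The vehicle libraries were above every estrogen library of their own siRNA arm. The log2 difference with E2 was -0.24 in both arms (SE 0.0363), and with 16aOHE it was -0.18 in scrambled and -0.14 in siCYP1B1 cells. The last of these lost its call without 5 of the 6 libraries in turn, all but siCYP1B1 16aOHE 1 (adjusted p from 0.0675 to 0.127), and in the fit of the 2 groups alone (0.0819).

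Klf2 (chr8:72319062-72321654, plus strand), the flow-induced factor of quiescent endothelium, was at 66.2, 60.8 and 62.9 CPM with scrambled siRNA and vehicle, 57.3, 56.4 and 51.5 with E2, and 57.3, 62.1 and 65.2 with 16aOHE. In siCYP1B1 cells it was at 61.3, 66.9 and 64.5 CPM with vehicle, 62.3, 56.0 and 58.6 with E2, and 65.1, 61.0 and 62.7 with 16aOHE. The E2 libraries lay under the vehicle libraries in scrambled cells and overlapped them in siCYP1B1 cells. The log2 differences were -0.20 and -0.12, and as deposited the gene was called in scrambled cells but not in siCYP1B1 cells. After median-of-ratios scaling or quantile normalization it was called in siCYP1B1 cells too (adjusted p = 0.0430 and 0.0269), and the interaction given further on is the test of the difference between the arms. In scrambled cells the call was lost without vehicle 1 (0.0530) or E2 3 (0.0660).

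Of 11 tested genes upstream of Klf2 and Klf4 (the MEKK3, MEK5, ERK5 and MEF2 route and the cerebral cavernous malformation genes that restrain it), 4 rose and 1 fell with E2 in scrambled cells, with a median difference of 0.02, where 30.0% of all genes were called. Mef2c, a MEF2 factor, rose by 0.56 from 2.63 ± 0.177 to 4.37 ± 0.683 CPM (adjusted p = 0.00194), Map3k2 by 0.23 (0.00115) and Map3k3, which encodes MEKK3, by 0.15 (0.00553). Mapk7, which encodes ERK5, fell by 0.28 on the log2 scale (adjusted p = 0.00636). With 16aOHE in scrambled cells none of the 11 was called. With siCYP1B1 against scrambled in vehicle, where 20.6% of all genes were called, Heg1 alone fell, by 0.16 (adjusted p = 0.0499). Its call was lost with no filter on low values (0.0743) and without any of 5 libraries, all but scrambled 1 (0.0598 to 0.229). In siCYP1B1 cells, where 27.5% of all genes were called, E2 gave 3 higher and 1 lower of the 11, and Mef2c, at 3.02 ± 0.443 CPM with vehicle and 2.91 ± 0.488 with E2, was not among them.

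Of 10 tested endothelial target genes of KLF2 and KLF4, 2 rose and 4 fell with E2 in scrambled cells (median -0.13), beside 18.6% of all genes called higher and 11.4% lower. F3, tissue factor, which KLF2 represses, rose by 0.33 (adjusted p = 0.0266), a call lost without E2 2, E2 3 or vehicle 2 (0.0568 to 0.144). Edn1, which encodes the vasoconstrictor endothelin and is repressed by KLF2, fell by 0.93 from 5.52 ± 0.508 to 2.43 ± 0.324 CPM (5.82e-05), Nov fell by 0.61 (0.00230) and Klk10 by 0.60 (0.0240), and Klk10 lost its call without E2 1, vehicle 2 or vehicle 3 (0.0546 to 0.145). Ccl2, a chemokine gene that KLF2 represses, fell by 0.33 (0.0135), a call lost without E2 1 or vehicle 1 (0.0545 and 0.0877). Nos3, endothelial nitric oxide synthase, lay between 0.0712 and 0.589 CPM in all 18 libraries and was below the filter, and Thbd, thrombomodulin, differed by 0.13 with E2 (95% interval -0.03 to 0.30). With 16aOHE, where 3.84% of all genes were called, 1 of the 10 rose and 2 fell, and the other 7 were not called. Among those that fell was Ccl2, by 0.50 on the log2 scale (adjusted p = 0.00362). With siCYP1B1 in vehicle 3 of the 10 fell and none rose, beside 9.12% of all genes called lower and 11.5% higher. Edn1 (-0.61, adjusted p = 0.00510) and Ccl2 (-0.41, 0.00453) led those that fell.

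Klf6 (chr13:5861489-5870393, plus strand), an injury-induced factor that acts on endoglin and other genes of vessel repair, had the widest range of group means for its spread, 11.3 times its residual SD. With scrambled siRNA its CPM was 241, 240.2 and 249.8 with vehicle, 195, 192 and 201 with E2, and 253, 233 and 237 with 16aOHE. With siCYP1B1 it was 217, 217 and 211 with vehicle, 186, 187 and 191 with E2, and 218, 222 and 221 with 16aOHE. Each of the 6 groups was separate from the next in the order of means, apart from the highest pair, scrambled with 16aOHE and scrambled with vehicle. The log2 difference of E2 from vehicle was -0.31 (SE 0.0330) in scrambled cells and -0.19 in siCYP1B1 cells, whereas with 16aOHE the differences were -0.02 (95% interval -0.08 to 0.05) and 0.04 (-0.03 to 0.11).

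Klf10 (chr15:38291464-38300711, minus strand) was at 73.9, 74.8 and 74.3 CPM with scrambled siRNA and vehicle, 66.6, 61.0 and 62.7 with E2, and 73.2, 73.3 and 66.5 with 16aOHE. In siCYP1B1 cells it was at 79.5, 79.3 and 74.6 CPM with vehicle, 71.3, 64.3 and 61.9 with E2, and 72.1, 70.8 and 67.8 with 16aOHE. All vehicle libraries lay above the estrogen libraries of the same siRNA arm. The difference with E2 was -0.23 (SE 0.0520) and -0.24 in the 2 arms, both called, and with 16aOHE it was -0.07 and -0.15, neither called.

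Of 10 early genes of transforming growth factor beta signalling, 2 rose and 3 fell with E2 in scrambled cells (median -0.02), beside 18.6% of all genes called higher and 11.4% lower. Ltbp2, which encodes a binding protein of latent transforming growth factor beta, fell by 0.96 (adjusted p = 6.84e-05), Ctgf, a connective tissue growth factor, by 0.57 (0.000139) and Smad6, an inhibitory SMAD, by 0.27 (0.00244). Smurf1 rose by 0.12 (0.0218), a call lost without E2 1, vehicle 1 or vehicle 2 (0.0590 to 0.110) and after median-of-ratios scaling (0.150). With siCYP1B1 in vehicle 6 of the 10 fell and none rose (median -0.23, beside 0.03 over all genes, of which 9.12% were called lower), led by Ctgf (-0.88, adjusted p = 1.47e-06), Ltbp2 (-0.81, 0.000601) and Pmepa1 (-0.50, 0.00587). Klf10 itself was 0.06 higher there and was not called.

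Klf13 (chr7:63886351-63938915, minus strand), an activator of chemokine genes in lymphocytes, was at 59.7, 63.3 and 63.0 CPM with scrambled siRNA and vehicle, 51.5, 56.7 and 53.5 with E2, and 55.9, 61.6 and 53.5 with 16aOHE. In siCYP1B1 cells it was at 67.8, 70.9 and 62.7 CPM with vehicle, 53.8, 55.9 and 59.3 with E2, and 63.2, 65.8 and 57.5 with 16aOHE. The E2 libraries lay below the vehicle libraries in each arm, and the log2 differences of -0.20 and -0.25 were both called. In scrambled cells the call was lost without vehicle 2, vehicle 3 or E2 1 (adjusted p = 0.0626, 0.0575 and 0.0768).

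Klf9 (chr19:23141226-23166911, plus strand), a repressor under glucocorticoid and thyroid hormone control, was at 44.1, 42.9 and 40.2 CPM with scrambled siRNA and vehicle, 38.6, 41.0 and 37.0 with E2, and 45.0, 43.4 and 42.8 with 16aOHE. In siCYP1B1 cells it was at 41.4, 43.0 and 43.3 CPM with vehicle, 40.0, 37.9 and 40.2 with E2, and 38.7, 44.8 and 44.3 with 16aOHE. Both E2 groups had the lowest means, yet the difference from vehicle, -0.12 and -0.11, was not called as deposited. After quantile normalization it was called in both arms (adjusted p = 0.0268 and 0.0392), and after median-of-ratios scaling in scrambled cells (0.0455).

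**Figure D3:**
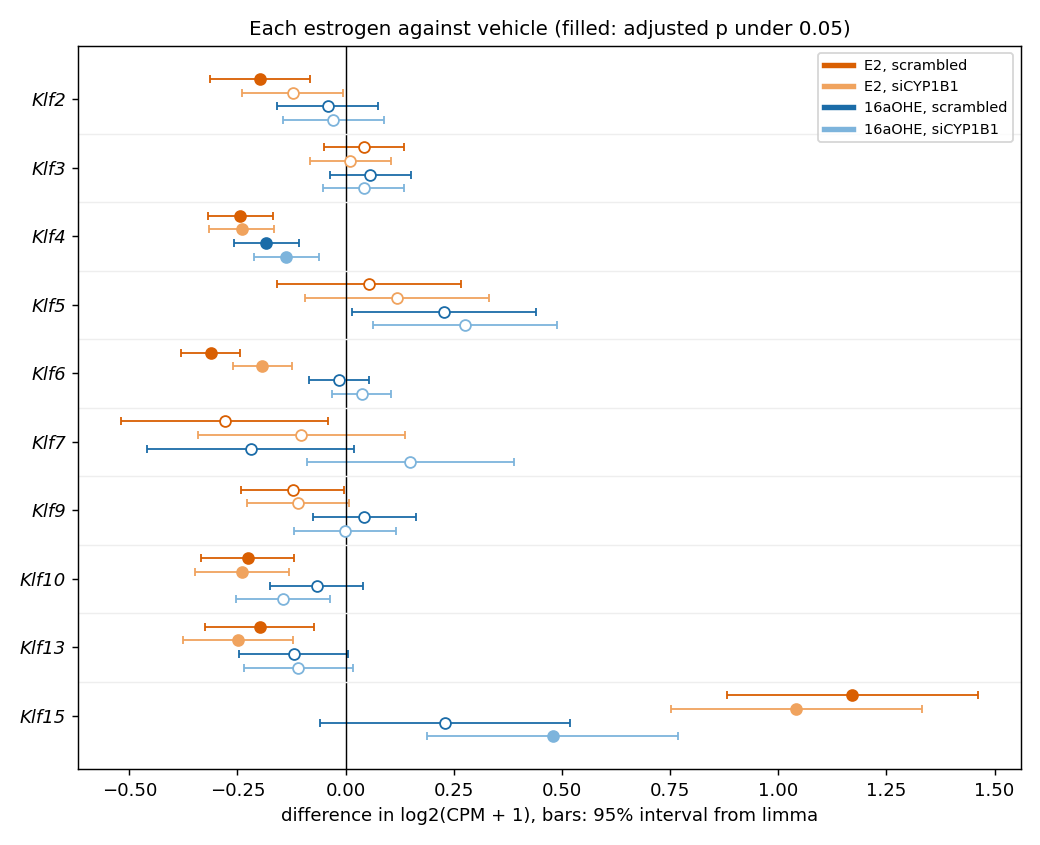
Difference from vehicle in log2(CPM + 1) for each of the 10 genes, with 95% intervals from limma, for E2 (orange, dark for scrambled and light for siCYP1B1) and 16aOHE (blue, dark and light likewise); filled points were called. Klf15 lies far to the right with E2 (1.17 and 1.04), while Klf4, Klf6, Klf10 and Klf13 lie between -0.31 and -0.19 with E2 in both arms.

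Of the remaining genes, Klf3 (chr5:64803523-64830129, plus strand), a repressor that recruits CtBP, was the steadiest, with group means within 0.08 of each other on the log2 scale and 129.6 to 148 CPM in the 18 libraries. All its neighbours in the order of group means overlapped, and it was called in none of the 11 comparisons. Klf5 (chr14:99298691-99313409, plus strand), which promotes smooth muscle proliferation, ranged from 7.19 to 11.9 CPM. Its 16aOHE libraries, at 10.1, 9.75 and 10.7 CPM with scrambled siRNA and 11.9, 10.9 and 10.6 with siCYP1B1, were above the vehicle libraries of their arm, at 7.19, 9.48 and 9.14 and 9.04, 9.14 and 8.92 CPM. The differences of 0.23 and 0.28 were not called. Klf7 (chr1:64035671-64121389, minus strand), a factor of neuronal growth, ranged from 3.98 to 6.90 CPM. Its scrambled values were 5.66, 5.37 and 6.77 CPM with vehicle, 5.74, 4.48 and 3.98 with E2, and 5.14, 4.63 and 5.05 with 16aOHE. Its siCYP1B1 values were 5.83, 5.27 and 5.54 CPM with vehicle, 5.62, 5.10 and 4.61 with E2, and 6.90, 5.75 and 6.17 with 16aOHE. Klf7 was called in no comparison as deposited. With E2 in scrambled cells its difference of -0.28 was called after median-of-ratios scaling (adjusted p = 0.0464) and without E2 1 (0.0153).

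Of 7 tested smooth muscle target genes of KLF4 and KLF5, none rose and 2 fell with E2 in scrambled cells (median -0.10), where 30.0% of all genes were called. Acta2, smooth muscle actin, fell by 1.03 from 32.7 ± 2.75 to 15.6 ± 1.20 CPM (adjusted p = 4.99e-08), and Srf, the serum response factor, fell by 0.17 (0.00865). With 16aOHE, where 3.84% of all genes were called, Acta2 alone fell, by 0.43 (0.00752, lost without 16aOHE 2 at 0.0621 or vehicle 3 at 0.0550). With siCYP1B1 in vehicle, where 20.6% of all genes were called, 2 of the 7 fell, Tagln by 0.69 (0.00401) and Acta2 by 0.57 (0.000142). Of 14 cofactors and ubiquitin ligases of the family, 3 rose and 2 fell with E2 in scrambled cells (median 0.05), a share near the 30.0% of all genes called there. The acetyltransferase gene Kat2b rose by 0.23 (0.000153), and Sin3b and Smurf1 by 0.11 (0.0278) and 0.12, both lost after median-of-ratios scaling (0.148 and 0.150). Sin3b also lost its call after quantile normalization (0.0881) and without E2 2, E2 3, vehicle 2 or vehicle 3 (0.0659 to 0.128), and Smurf1 as given above. Hdac2, a histone deacetylase, fell by 0.17 (0.00386) and Ctbp2, the corepressor bound by Klf3, by 0.15 (0.0143, lost without vehicle 2 at 0.0735).

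Among 10 tested metabolic target genes of KLF15, 5 rose and none fell with E2 in scrambled cells (median 0.15), beside 18.58% of all genes called higher. Gpt2, an alanine transaminase, rose by 0.35 from 46.7 ± 0.859 to 60.0 ± 2.18 CPM (adjusted p = 2.09e-05). Bckdha and Bckdhb, subunits of the branched-chain ketoacid dehydrogenase, rose by 0.25 (0.0203) and 0.23 (0.0181), and both lost their calls after quantile normalization (0.0689 and 0.0606) and without vehicle 2 (0.0985 and 0.0644) or vehicle 3 (0.0582 and 0.0728). Bckdha was also lost without E2 2 (0.0868) and Bckdhb without E2 3 (0.0810). In siCYP1B1 cells 2 of the 10 rose with E2, a share near the 16.7% of all genes called higher there. They were Gpt2, by 0.35 (2.16e-05), and Got1, an aspartate transaminase, by 0.21 (0.000179). Bckdha and Bckdhb differed there by 0.15 and 0.19 and were not called (limma adjusted p = 0.171 and 0.0548). Their interactions of E2 with siCYP1B1, -0.10 and -0.04, were not called either, so a difference between the siRNA arms was not shown. With 16aOHE none of the 10 was called in either arm.

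The glucocorticoid receptor induces Klf9 and Klf15, and the list of its target genes had 12 tested genes, among them the receptor gene Nr3c1 itself. Of these 12, 3 rose and 4 fell with E2 in scrambled cells (median -0.06), where 30.0% of all genes were called. The metallothionein genes Mt2 and Mt1, which metals also induce, rose by 1.97 from 10.9 ± 0.242 to 45.6 ± 3.39 CPM and by 1.34 from 69.1 ± 7.07 to 177 ± 12.5 CPM (adjusted p = 2.23e-13 and 3.16e-11), and Ddit4 rose by 0.18 (0.00159). Fkbp5, a receptor chaperone induced by glucocorticoids, fell by 0.35 from 327 ± 7.25 to 256 ± 5.21 CPM (3.07e-07), Per1 fell by 0.25 (0.0302) and Tsc22d3 by 0.21 (0.00191). Per1 lost its call without E2 2, E2 3, vehicle 1 or vehicle 3 (0.0529 to 0.107). The receptor gene Nr3c1 differed by 0.01 (95% interval -0.08 to 0.10). With 16aOHE in scrambled cells Errfi1 rose by 0.24 (0.0106) and Ddit4 and Fkbp5 fell by 0.17 (0.0148) and 0.16 (0.00861), the other 9 not being called. Over all genes 3.84% were called there. Errfi1 lost that call without 16aOHE 2, 16aOHE 3 or vehicle 2 (0.0511 to 0.0571), Ddit4 without 16aOHE 1 or vehicle 1 (0.115 and 0.0950), and Fkbp5 without the same pair (0.0573 and 0.0503).

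**Figure D4:**
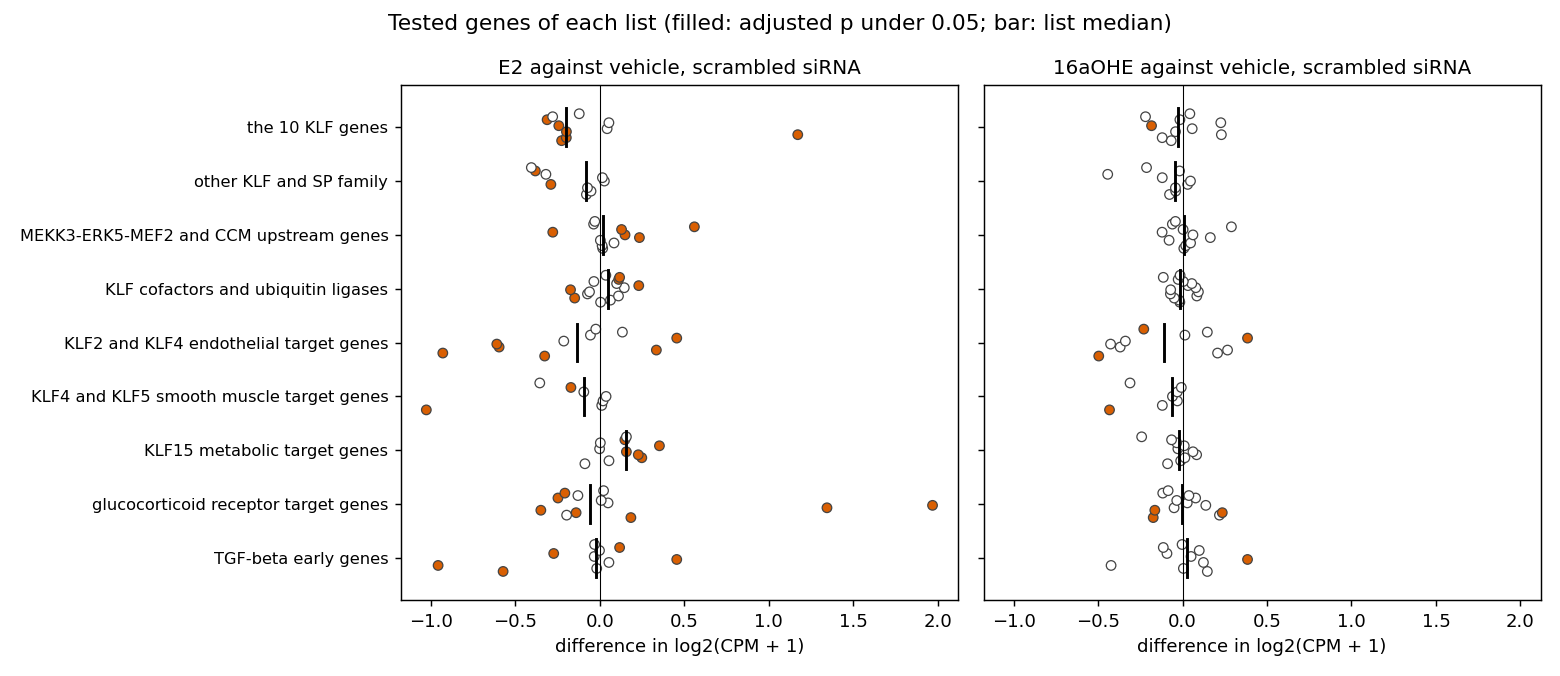
Difference in log2(CPM + 1) for the tested genes of the family and of 7 gene lists around it, with E2 (left) and 16aOHE (right) against vehicle in scrambled cells; filled points had an adjusted p under 0.05 and bars mark each list's median. With E2 the KLF15 metabolic targets have the highest list median (0.15) and the 10 KLF genes the lowest (-0.20), and Mt2 and Mt1 are the points at 1.97 and 1.34.

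Against vehicle in scrambled cells, 16aOHE gave 1 called gene of the 10 (Klf4, lower), where 3.84% of all genes were called, and in siCYP1B1 cells it gave 2 (Klf15 higher, Klf4 lower), where 5.40% were called. These comparisons share their vehicle libraries with those of E2. The 2 estrogens, given at the same dose for the same time, differ in that 16aOHE carries a ketone and an added hydroxyl group on the ring where E2 carries a hydroxyl alone. Set directly against E2, 16aOHE differed in 4 of the 10 genes in scrambled cells (Klf6, Klf9 and Klf10 higher, Klf15 lower; 18.4% of all genes called) and in 2 in siCYP1B1 cells (Klf6 higher, Klf15 lower; 18.3%). Klf15 was lower with 16aOHE than with E2, with log2 differences of -0.94 and -0.56 (SE 0.139), and Klf6 was higher by 0.30 and 0.23 (SE 0.0330), with no overlap of libraries. In siCYP1B1 cells the call of Klf15 was lost without E2 3 (adjusted p = 0.0523), the library with the highest value of the gene. Klf9 (0.17) and Klf10 (0.16) were called in scrambled cells, but were lost in the fit of the 2 groups alone (0.0672 and 0.0640), Klf9 with no filter on low values (0.0591) and without any of 5 libraries, all but E2 2 (0.0713 to 0.171), and Klf10 without any of 4, all but 16aOHE 3 and E2 1 (0.0937 to 0.135). Klf2 was 0.16 higher with 16aOHE and was not called there as deposited, but was after either other scaling (0.0234 and 0.0196) and without 16aOHE 1 (0.0243) or E2 1 (0.0493).

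For the other genes the estrogens did not differ by a called amount in scrambled cells, with differences of 0.06 for Klf4 (95% interval -0.02 to 0.14), 0.01 for Klf3 (-0.08 to 0.11), 0.17 for Klf5 (-0.04 to 0.39), 0.06 for Klf7 (-0.18 to 0.30) and 0.08 for Klf13 (-0.05 to 0.20). In siCYP1B1 cells Klf4 was 0.10 higher with 16aOHE than with E2 (0.03 to 0.18) and passed the threshold in some alternatives but not as deposited, among them median-of-ratios scaling (adjusted p = 0.00560), a filter at a mean of 5 CPM (0.0469) or without 16aOHE 3 (0.0484) or E2 1 (0.0390). Klf13 (0.14) passed it there without 16aOHE 3 (0.0473) and Klf9 (0.11) without 16aOHE 1 (0.0322). Of the genes called with 16aOHE against E2 in scrambled cells, 36.8% were higher as deposited, 54.6% after median-of-ratios scaling and 49.4% after quantile normalization (35.9%, 59.3% and 52.0% in siCYP1B1 cells). Around the family, Edn1 was 1.14 higher with 16aOHE than with E2 (adjusted p = 1.52e-05), Ctgf 0.72 higher (2.98e-05), while Gpt2 fell by 0.34 (7.39e-05) and Mt2 fell by 1.83 (2.89e-12) against E2 in scrambled cells.

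Between siCYP1B1 and scrambled siRNA, Klf6 differed by -0.18 (SE 0.0330) on the log2 scale with vehicle, -0.13 with 16aOHE and -0.06 with E2, where its libraries did not overlap but it was not called. It was the 1 gene of the 10 called with vehicle, where 20.6% of all genes were called. None was called with E2 (21.2% of all genes by limma), where no gene of the 10 had an unadjusted p under 0.05 either. With 16aOHE 2 were called, Klf6 lower and Klf15 higher (19.7% of all genes). Klf15 was higher with siCYP1B1 by 0.51 in that arm, from 1.76 ± 0.268 to 2.91 ± 0.20 CPM, with no overlap of libraries. Both of these calls were lost without scrambled 16aOHE 1 (adjusted p = 0.0743 for Klf15 and 0.0716 for Klf6), and that of Klf6 in the fit of the 2 groups alone (0.0576). With vehicle and with E2, Klf15 was 0.26 (95% interval -0.03 to 0.55) and 0.13 (-0.16 to 0.42) higher with siCYP1B1, and the libraries overlapped. Klf7, 0.29 higher with 16aOHE, was called only after quantile normalization (0.0451). Of the called genes in all, 55.7%, 53.7% and 52.7% were higher with siCYP1B1 in the vehicle, E2 and 16aOHE arms as deposited, 41.4%, 41.1% and 46.8% after median-of-ratios scaling, and 47.0%, 46.6% and 48.3% after quantile normalization.

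**Figure D5:**
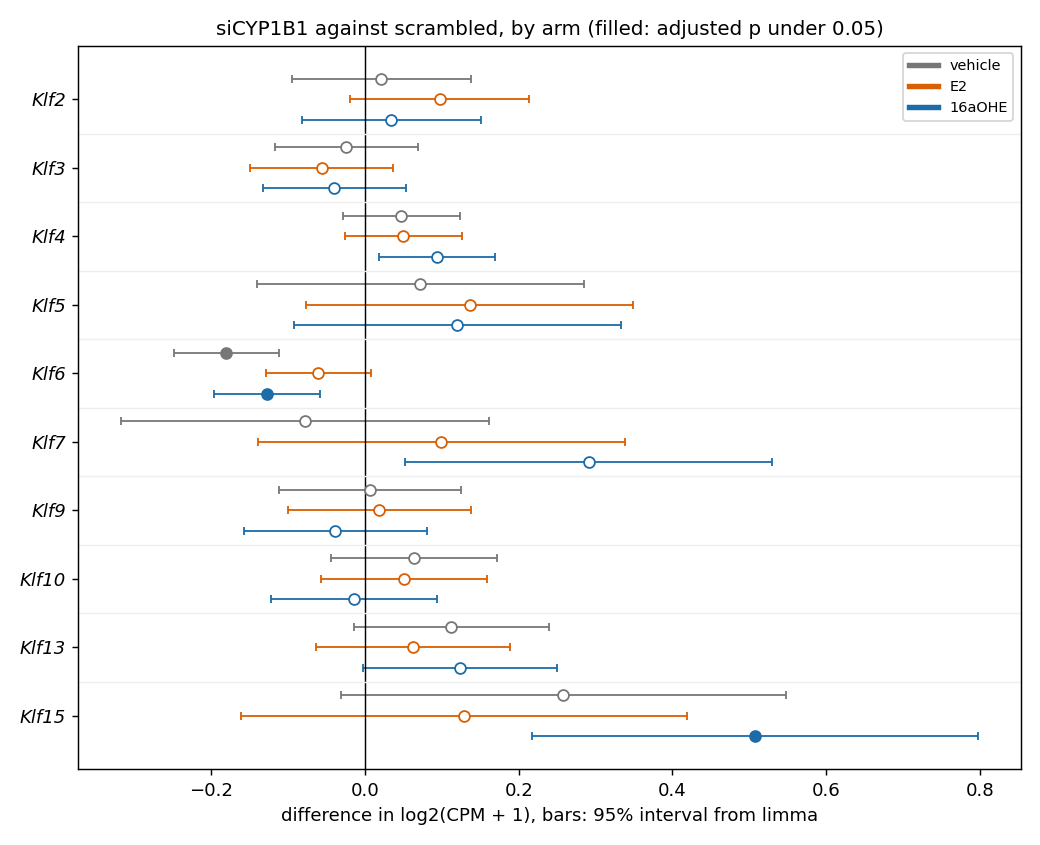
Difference between siCYP1B1 and scrambled siRNA in log2(CPM + 1) for each of the 10 genes in the vehicle (grey), E2 (orange) and 16aOHE (blue) arms, with 95% intervals from limma; filled points were called. Klf6 lies left of 0 in all 3 arms (-0.18, -0.06 and -0.13) and Klf15 right of 0 (0.26, 0.13 and 0.51).

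The interaction terms, which ask whether an estrogen's difference from vehicle changed with siCYP1B1, called 0 of 11835 genes for E2 and 0 for 16aOHE by limma (0% of all genes in each). At an unadjusted p under 0.05 there were 470 and 596 genes, and 1 gene of the 10 in each. No other tool was run. For Klf15 the interaction was -0.13 (95% interval -0.54 to 0.28) with E2 and 0.25 (-0.16 to 0.66) with 16aOHE, so a difference between the siRNA arms was not shown. The gene of the 10 with the unadjusted p under 0.05 was Klf6 for E2 (0.12, 95% interval 0.02 to 0.22, limma adjusted p = 0.998) and Klf7 for 16aOHE (0.37, 0.03 to 0.71, adjusted p = 0.922). For Klf2 the term with E2 was 0.08 (-0.09 to 0.24).

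Of 17 other KLF and SP genes listed, 13 had rows in the table and 9 a mean of at least 1 CPM. Klf12, Klf14, Klf18 and Sp5 were not analysed here, and Klf1, Klf8, Klf17 and Sp7 averaged 0.0875, 0.192, 0.0297 and 0.0916 CPM. Per kilobase of exon, Sp3 (39.7), Sp1 (24.3) and Klf16 (19.9 CPM per kb) were the most abundant of the 9, followed by Sp2 (12.2), Sp8 (9.11), Klf11 (3.22), Sp4 (1.89), Sp6 (1.78) and Sp9 (0.285). The deposited coordinates of Sp9 also end short of its GENCODE gene, so its level per kb may be too low. With E2 in scrambled cells none of the 9 rose and 2 fell (median -0.08), beside 18.6% of all genes called higher and 11.4% lower. Sp8, a factor of limb and nervous system development, was at 43.1, 39.2 and 42.1 CPM with vehicle and 30.2, 34.0 and 30.7 CPM with E2, a fall of 0.38 (adjusted p = 0.00010), and Sp2 fell by 0.29 (0.0106), a call lost without vehicle 1 (0.0544). In siCYP1B1 cells, where 10.8% of all genes were called lower, 5 of the 9 fell with E2 and none rose, Sp8 by 0.41 (5.11e-05), Sp6 by 0.38 (0.0286) and Sp2 by 0.37 (0.00183), and Klf11 fell by 0.24 (0.0223) and Klf16 fell by 0.16 (0.0111). Of these, Sp6 lost its call without E2 1, vehicle 1 or vehicle 2 (0.0829 to 0.107), Klf11 without E2 1, E2 3, vehicle 1 or vehicle 3 (0.0508 to 0.101) and Klf16 without vehicle 2 (0.0520). With 16aOHE none of the 9 was called in either arm.

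With siCYP1B1 in vehicle 1 of the 9 rose and 2 fell, where 20.6% of all genes were called. Sp6, a factor of tooth and skin epithelium, fell in every arm, by 0.62 (adjusted p = 0.00135) with vehicle, 0.68 (0.000539) with E2 and 0.43 (0.0189) with 16aOHE, and its libraries with vehicle were at 9.45, 10.5 and 10.2 CPM with scrambled siRNA and 6.64, 6.43 and 5.60 CPM with siCYP1B1. Sp8 rose with siCYP1B1 by 0.26 (0.00593), 0.23 (0.0126) and 0.23 (0.0144) in the 3 arms, and Sp3 fell by 0.13 (0.0233), 0.17 (0.00413) and 0.12 (0.0369). The calls with 16aOHE were lost for Sp6 in the fit of the 2 groups alone (0.0787) and without scrambled 16aOHE 1 (0.10) or siCYP1B1 16aOHE 2 (0.131), for Sp8 without siCYP1B1 16aOHE 1 (0.0852) and for Sp3 without any of 5 libraries, all but scrambled 16aOHE 3 (0.0660 to 0.137). With vehicle the call of Sp3 was lost without scrambled 1, scrambled 3, siCYP1B1 2 or siCYP1B1 3 (0.0607 to 0.0723), and with E2 that of Sp8 without scrambled E2 1 (0.0574). A share of Sp6 exon bases (3329) lies opposite Gm11532, also in the table, so their reads may be mixed. The same holds for smaller stretches of Sp2 (126 bases opposite D030028A08Rik), Sp3 (109 opposite Sp3os) and Sp9 (270 opposite Cir1).

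For the 3 genes with the widest range of group means, the genes most like each over the 18 libraries were named by Pearson's r of log2(CPM + 1), as a description. The libraries share their treatment groups, so r carries the group differences, and it carries differences between libraries of the same group as well. Nearest to Klf15 were Adprh (r = 0.952), Slc31a1, a copper transporter (0.948), and Bnip3, a mitochondrial protein of mitophagy (0.947). Nearest to Klf6 were F2r, the thrombin receptor (0.948), Cav1, the coat protein of caveolae (0.948), and Nes, which encodes nestin (0.946). Nearest to Klf7 were Zfp703 (0.860), Kdm6b, a histone demethylase (0.776), and Ppp1r13l (0.762).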

How the data were processed

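The authors deposited 1 table of counts-per-million (CPM) for 15288 genes in 18 libraries, which holds an offset of 0.0001 in place of 0. Reads were aligned with TopHat2 to mm10 and processed with Partek, per the submitters' processing notes, and no source used here gives the versions, the gene annotation or the strandedness. The steps between low values gave each library's depth, but only 93.5 to 94.4% of values under 200 reads were whole within 0.1 reads, so no count model was used. Differences were tested in limma 3.58.1 (R 4.3.3; lmFit and eBayes with trend, 2-sided) on log2(CPM + 1), for the 11835 genes averaging 1 CPM or more (3453 were below), in 1 fit of all 18 libraries with 12 residual degrees of freedom and 11 contrasts, each adjusted by Benjamini-Hochberg over all genes tested. The script was tested on simulated data. Replicate numbers follow accession order and the labels give them no meaning, so the fit has no block; a fit with the number as a block was added after seeing the data. Depth (14.1 to 38.5 M reads) limits low genes such as Klf15 most.

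The members, the 14 gene lists and the tests were chosen with earlier results of these data known. Named were all 10 genes, Cyp1b1, the other family genes, up to 3 called genes of each list in each direction, and the 3 genes of at least 5 CPM most correlated with each of the 3 genes with the widest range. Alternatives were 2 other scalings, 2 other pseudocounts, 2 other filters, fits of the compared groups alone, and leaving out each library. The values of 1 list gene are not reported here, though counts and medians of its lists include it.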

Additional observations from a re-analysis of the deposited data

Results flagged for a closer look

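Klf7 was noted for a difference between the siRNA arms. With 16aOHE its 3 libraries all lay below the vehicle mean in scrambled cells and all above it in siCYP1B1 cells. The interaction term was 0.37 (SE 0.163; unadjusted p = 0.0340, limma adjusted p = 0.922), so the difference did not pass the test.

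Klf11 was noted because its siCYP1B1 libraries were all below the scrambled mean with E2 (mean difference -0.71 CPM) and all above it with 16aOHE. This difference between the estrogen arms was not tested. Groups of 3 libraries were too small to look for a single library far from the others.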

How the results depend on the processing

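No called value of the 10 genes or of the lists changed direction under any alternative run. Of the 10 genes, 1518 values under the alternatives kept their direction and side of the threshold, 35 lost a call and 22 gained one, and 74 uncalled values differed in sign. For 16aOHE against E2 in scrambled cells 4 of the 10 genes were called, and 2 when the 2 groups were fitted alone. Leaving out 1 library gave 2 to 4 there, and 1 to 4 in siCYP1B1 cells, where 2 were called. For 16aOHE against vehicle in siCYP1B1 cells the 2 called genes became 1 with the filter at a mean of 5 CPM or a pseudocount of 5, 0 when fitted alone, and 0 to 1 without 1 library. After median-of-ratios scaling 3 genes were called for 16aOHE against E2 in siCYP1B1 cells. For siCYP1B1 against scrambled with 16aOHE the 2 became 1 with the 5 CPM filter or fitted alone, and 0 to 2 without 1 library. Klf15 could not be tested with the 5 CPM filter. Over all genes, 16aOHE against vehicle called 248 in place of 454 without scrambled 16aOHE 1, and 306 in place of 639 without siCYP1B1 16aOHE 2 (365 fitted alone), 16aOHE against E2 in siCYP1B1 cells called 1446 in place of 2171 without siCYP1B1 16aOHE 2, siCYP1B1 against scrambled with 16aOHE called 1538 in place of 2331 fitted alone, and the 16aOHE interaction called 12 in place of 0 fitted alone. The cause was not tested. The labels give no replicate numbers, and those used follow accession order. Deviations from the group means correlated with a mean r of 0.137 between same-numbered libraries of different groups (-0.061 to 0.348, over 0.1 in 27 of 45 pairs) and -0.0675 between others, highest among those numbered 1 (mean 0.24), a hint from the data and not from the design. A replicate block on that number, added after seeing the data, ended no call of the 10 genes or the list genes. It added Klf2 (16aOHE against E2, scrambled, 5 called), Klf4 (the same in siCYP1B1 cells, 3), Klf10 (16aOHE against vehicle in siCYP1B1 cells, 3) and Klf4 (siCYP1B1 against scrambled with 16aOHE, 3). Over all genes the block called 1062 in place of 639 for 16aOHE against vehicle in siCYP1B1 cells and 10 in place of 0 for the 16aOHE interaction. Depth limits Klf15 most, at 24 to 153 reads a library.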
